A study of Homo sapiens with 12 samples.

Results

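The oxygen dependence of the FDX2-loss response was measured in 12 of the 12 RNA-seq libraries of the series, as the difference between the response to FDX2 loss at 3% O2 and the response at 20% O2. The cells were the FDX2-iKO derivative of ES2, an ovarian cancer line of human origin whose endogenous FDX2 gene was knocked out by CRISPR-Cas9, and an editing-resistant, HA-tagged FDX2 was driven by a Doxycycline (Doxy)-dependent TetON promoter. The 4 groups of 3 libraries were 20% O2 + Doxy (group A), 20% O2 wo Doxy (group B), 3% O2 + Doxy (group C) and 3% O2 wo Doxy (group D). FDX2 was thus maintained in A and C and withdrawn in B and D. The 20% O2 cells were kept 6 days in their condition, whereas the 3% O2 cells had 4 days at 20% O2 followed by 3 days at 3% O2, so that oxygen and the 7 days of total culture cannot be told apart. Withdrawal of Doxy and loss of FDX2 cannot be told apart either, and the libraries come from 1 knockout clone as far as the methods tell, since they name a single clone as the default and no other is named for these samples. In bulk RNA, fewer cells of a kind and less RNA per cell cannot be told apart.

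All genes were members of the comparison. Of 58735 gene identifiers, 32966 had a count and 16891 passed the filter on low counts and were tested. For each gene, the response to FDX2 loss was taken as B against A at 20% O2 and as D against C at 3% O2, and the interaction value is (D - C) - (B - A) on the log2 scale, where 1 is a 2-fold difference. The same number equals (D - B) - (C - A), the oxygen effect without Doxy minus the oxygen effect with Doxy, so each gene with an interaction can be sorted by which of the oxygen effects gives rise to it. Levels are given in counts per 1e6 counts (CPM) after scaling of the library totals, and a gene was called at an adjusted p under 0.05 in edgeR's quasi-likelihood test.

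FDX2 is a mitochondrial ferredoxin that passes electrons to the machinery that builds iron-sulfur (Fe-S) clusters, cofactors of the respiratory chain and of enzymes of DNA replication and repair. Oxygen can damage exposed Fe-S clusters. Mitochondrial faults are known to activate the integrated stress response, in which the transcription factor ATF4 raises genes of amino acid synthesis, uptake and tRNA charging, whereas low oxygen stabilizes HIF-1, which raises genes of glycolysis, angiogenesis and iron uptake. The study used these conditions to ask how oxygen bears on what FDX2 loss does to these cancer cells.

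Library totals lay between 24958386 and 34313637 counts. The first principal component (48.0% of the variance) separated group B (25.9 to 28.4 on this component) from the other 9 libraries (-25.4 to 6.44), and among these it also set A1 and C3 apart from the other Doxy-treated libraries and D1 apart from D2 and D3. Within groups, the deviation of a library from its group mean followed transcript GC content across genes, with a correlation of 0.819 for A1, 0.677 for C3 and -0.734 for A3 and between -0.460 and 0.347 for the B libraries. The interaction value itself correlated with GC content across 11119 genes at r = 0.449, a description over genes that share these libraries. For the oxygen effects, r was 0.513 without Doxy (D - B) and 0.142 with Doxy (C - A). For FDX2 loss it was -0.243 at 20% O2 and 0.220 at 3% O2. FDX2 had 2 to 13 counts per library, below the filter, and its exons overlap those of neighbouring genes, so these counts do not check the knockout. The submitters noted for A1 and A2 that 1 of the paired FASTQ files was lost and that count data are included. Of 11 ovarian and epithelial markers KRT7, KRT8, KRT18 and PAX8 were present, and all 6 mesenchymal markers were (KRT7 416 to 676 CPM, VIM 2064 to 4173 CPM), whereas EPCAM, CDH1, KRT19 and MUC16 did not exceed 0.119 CPM. None of the 5 leukocyte markers exceeded 0.281 CPM and MS4A1 was at 0 in all 12 libraries, as were the 3 erythroid markers. Among the 4 endothelial markers PECAM1 and VWF were at or near 0, and CDH5 had 22.1 to 51.4 CPM, with an interaction value of 0.40 that was not called (edgeR adjusted p = 0.186). DCN and LUM, of the 4 stromal markers, were at or near 0. PDGFRA was called for FDX2 loss at both oxygen levels (1.40 and 0.86) but not for the interaction (-0.54, edgeR adjusted p = 0.0713). The summed endothelial markers had 23.97 to 30.1 CPM in A, 28.7 to 29.9 CPM in B, 31.5 to 39.3 CPM in C and 43.01 to 54.4 CPM in D, and the summed stromal markers 3.58 to 4.02 CPM in A, 8.79 to 10.3 CPM in B, 3.97 to 4.47 CPM in C and 7.20 to 8.45 CPM in D, and their part in the results was not tested.

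The response to FDX2 loss differed between 3% and 20% O2 for 1231 of the 16891 tested genes (7.29%). The interaction was positive for 542 genes (3.21%) and negative for 689 (4.08%), and 3956 genes had an unadjusted p under 0.05. The oxygen effect without Doxy (D - B) alone was called for 1061 of these 1231 genes, or 86.2%. In this class the median size of D - B was 0.48 and that of C - A 0.088 on the log2 scale, with 502 positive and 559 negative interaction values. Its positive genes had a median GC content of 49.2% and a median level of 93.6 CPM. Its negative genes had 44.6% and 19.3 CPM, against 48.4% and 15.6 CPM over all tested genes. The oxygen effect with Doxy (C - A) alone was called for 49 genes, or 3.98%, of which 39 had a negative interaction value. A further 29 genes had both oxygen effects called in opposite directions, 29 had both called in the same direction, and 63 had neither called. By size alone, D - B was at least 2 times C - A for 934 genes and C - A at least 2 times D - B for 75, with 222 between. The interaction and the oxygen effects use the same libraries, so this sort is a description and was not tested.

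Over all tested genes, D - B was called higher for 2348 genes (13.9%) and lower for 2012 (11.9%), and C - A higher for 276 (1.63%) and lower for 65 (0.385%). The median size over all genes was 0.25 for D - B and 0.12 for C - A. The level of group B stood apart most often. In 1016 of the 1061 genes of the D - B class, or 95.8%, all 3 B libraries lay above or all 3 lay below the other 9 libraries, against 29.7% of all tested genes. The same held for all 3 A libraries in 46 of the 49 genes of the C - A class, or 93.9%, against 5.55% of all tested genes. Thus 20% O2 without Doxy was the group apart in most genes of the first class, and 20% O2 with Doxy in most of the second. Both patterns follow in part from the sort itself.

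**Figure D1:**
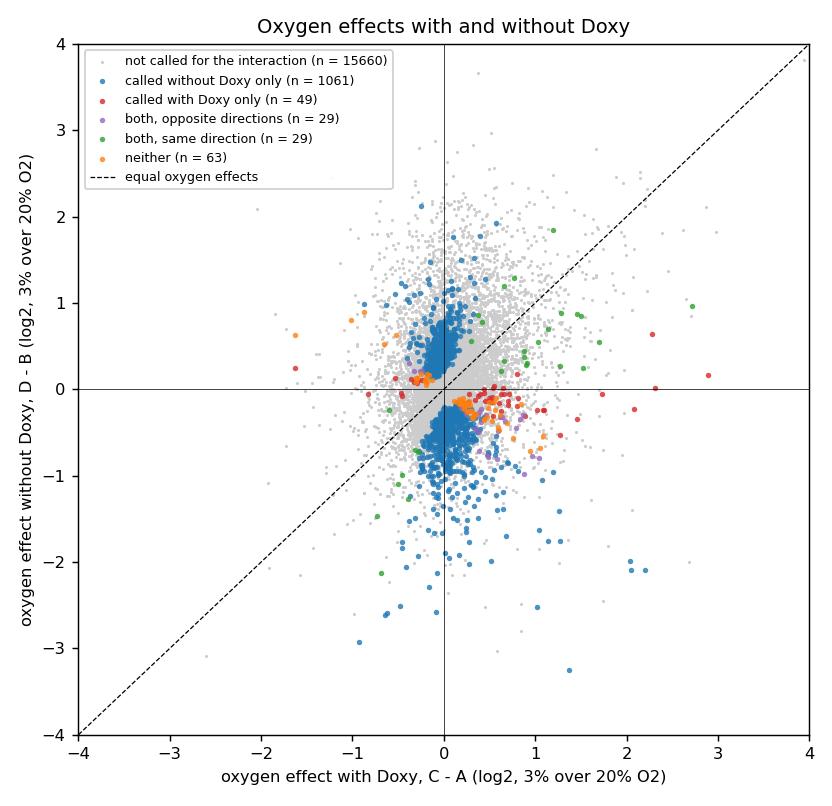
Oxygen effect with Doxy (x axis, C - A) against oxygen effect without Doxy (y axis, D - B), both as log2 of 3% over 20% O2; each point is a tested gene, colours give the class of the 1231 genes called for the interaction, and the dashed line marks equal effects. The 1061 genes of the largest class form bands above and below 0 on the y axis and stay near 0 on the x axis; 13 genes, 5 of them called, lie outside the axes.

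Seen from FDX2 loss, the response was smaller at 3% O2 in 846 of the 1231 genes, with a median size of 0.76 at 20% O2 and 0.21 at 3% O2. For 331 genes the fitted responses had opposite signs, but most of these were near 0 at 3% O2 (median size 0.11), and only 10 had both responses called. The response was larger at 3% O2 for 35 genes, and 19 fell in none of these classes. FDX2 loss at 20% O2 was called higher for 2971 genes (17.6%) and lower for 2990 (17.7%), and at 3% O2 higher for 709 (4.2%) and lower for 526 (3.11%). The responses at the different oxygen levels share no library. Among the 5961 genes called at 20% O2, the median size was 0.48 there and the median value at 3% O2, signed by the direction at 20% O2, was 0.16. Among the 1235 genes called at 3% O2, the median size was 0.39 there and 0.55 at 20% O2 in the same direction. In the D - B class, 542 genes had risen with FDX2 loss at 20% O2, 481 had fallen and 38 were not called.

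**Figure D2:**
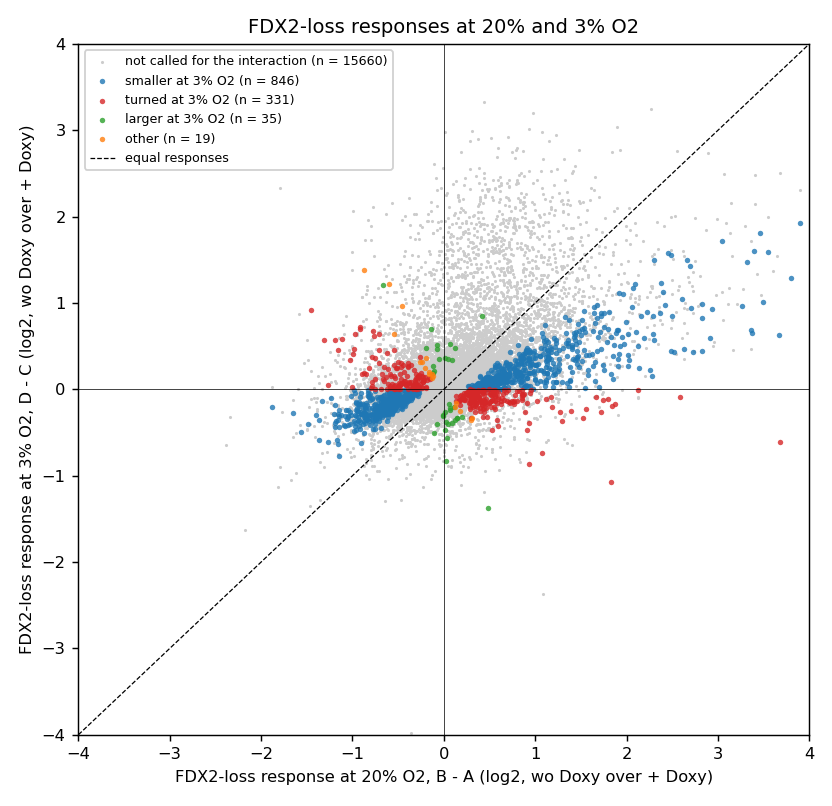
Response to FDX2 loss at 20% O2 (x axis, B - A) against the response at 3% O2 (y axis, D - C), both as log2 of wo Doxy over + Doxy, for every tested gene; colours give the class of the 1231 called genes and the dashed line marks equal responses. Most called genes lie between the dashed line and 0 on the y axis; 28 genes, 9 of them called, lie outside the axes.

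How far these counts rest on single libraries was as follows. All 1231 genes kept the sign of their interaction value in each fit in which they were tested. The number called ranged from 520 (without B3) to 2191 (without C3) when 1 library was left out, and was 595, 617, 626, 684, 694, 715 and 810 without B1, B2, C2, D2, A2, C1 and D3 in turn and 1034 to 1190 without A1, A3 or D1. Without C3, 57.1% of the called genes were positive. It was 303, of which 294 were among the 1231, when A1 and A2 were left out together. With each library's GC trend removed, 2817 genes were called, 1801 positive and 1016 negative, so that 63.9% were positive against 44.0% without that step, and 1108 of the 1231 were among them. With the replicate number as a block over all 12 libraries, 615 genes were called. The share of called genes in the D - B class stayed between 79.9% and 90.1% over these settings. It was 54.3% among the 186 genes with an interaction value of at least 2-fold. In that setting an oxygen effect also had to reach 2-fold to count as called, so this share is not on the same rule as the others. Whether the GC trends of the libraries take part in the result was not tested beyond these values.

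Targets of the integrated stress response lay on the negative side. Of 41 tested ATF4 targets, 23 had a negative and 1 a positive interaction value past the threshold (4.08% and 3.21% of all tested genes), and the list median was -0.76, against 0.054 over all genes. FDX2 loss at 20% O2 raised 28 members and lowered 1 (median 0.85), whereas at 3% O2 it raised 8 and lowered 4 (median 0.014). The oxygen effect was called for 3 members with Doxy, all higher (median -0.0051), and without Doxy for 3 higher and 25 lower (median -0.69). By class, 21 of the 24 called members belonged to D - B alone. The number called lower ranged from 21 to 25 with 1 library left out and was 20 without A1 and A2. The shares over all tested genes, 4.08% lower and 3.21% higher, also stand beside the interaction calls of the lists below. They belong to the main edgeR fit. With the GC trends removed 1016 of all genes were called lower and 1801 higher, and by DESeq2 955 and 977. At an unadjusted p under 0.05 there were 3956 in both directions together. List counts under those settings are to be read beside these numbers.

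The promoters of 4 called members hold the letters TGATGNAA, a form of the C/EBP-ATF response element to which ATF4 dimers are known to bind, within 250 bases before the RefSeq start on either strand. They are shown because they are all the called members whose window holds these letters. Among tested members with a RefSeq promoter, 6 of 33 (18.2%) held it, among called members 4 of 21 (19.0%), and among all 27305 promoters 3.89%. A match is a description of these letters and not evidence of binding. Each stretch is from RefSeq GRCh38.p14, 5′ to 3′ on the strand of the gene, with the matched letters in capitals. The CHAC1 match reads on the opposite strand. CEBPG, a C/EBP-family partner of ATF4, had an interaction value of -0.93. The stretches lie at chr7:97872439-97872506 (minus strand) for ASNS, chr15:40953232-40953299 (plus) for CHAC1, chr1:212565186-212565253 (plus) for ATF3 and chr19:33374041-33374108 (plus) for CEBPG.
ASNS: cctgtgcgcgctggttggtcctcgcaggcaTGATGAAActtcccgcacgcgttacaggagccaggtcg
CHAC1: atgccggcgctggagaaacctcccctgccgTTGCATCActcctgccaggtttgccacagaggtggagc
ATF3: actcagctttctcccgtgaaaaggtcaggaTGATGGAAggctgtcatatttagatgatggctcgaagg
CEBPG: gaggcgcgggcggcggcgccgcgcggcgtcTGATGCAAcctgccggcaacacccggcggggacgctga

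CHAC1, a glutathione-degrading enzyme at chr15:40952962-40956519 (GRCh38, plus strand), shows the pattern. CHAC1 had 4.28, 3.04 and 2.47 CPM at 20% O2 with Doxy and 11.8, 11.1 and 11.1 CPM without it, against 2.72, 2.94 and 4.17 CPM at 3% O2 with Doxy and 3.34, 2.78 and 3.03 CPM without it. The 3 libraries at 20% O2 without Doxy stood above all others, and the other 9 overlapped. The interaction value was -1.90 ± 0.29 (log2 ± SE, edgeR adjusted p = 0.00353), from a D - B of -1.89 and a C - A of 0.0077. ASNS, asparagine synthetase, went from 1.34, 1.23 and 1.23 CPM in group A to 5.07, 6.42 and 5.20 CPM in group B, and had 0.907, 0.917 and 1.58 CPM in group C and 0.845, 1.27 and 1.28 CPM in group D. Its interaction value was -2.13 ± 0.34 (log2 ± SE, edgeR adjusted p = 0.00434), but 44.6% of its exon length overlaps another gene and the strand setting of the counting is not given. ATF3, a stress-induced transcription factor, had 9.79, 10.02 and 10.6 CPM in group B and between 1.60 and 2.94 CPM in the other 9 libraries, with an interaction value of -1.65 ± 0.22 (log2 ± SE, edgeR adjusted p = 0.00204). Its D libraries lay above all C libraries, overlapped those of A, and kept a called response (D - C 0.65, edgeR adjusted p = 0.0347).

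Further ATF4 targets are named here for the size of their interaction values. CTH, which makes cysteine, and ALDH1L2, a mitochondrial folate enzyme, had interaction values of -1.56 ± 0.12 (log2 ± SE, edgeR adjusted p = 6.89e-05) and -1.54 ± 0.097 (log2 ± SE, edgeR adjusted p = 1.98e-05). CTH had 6.46, 6.81 and 7.08 CPM at 20% O2 with Doxy and 20.9, 21.3 and 21.8 CPM without it, against 6.28, 5.77 and 6.82 CPM at 3% O2 with Doxy and 6.84, 6.19 and 7.08 CPM without it. For CTH the A, C and D libraries overlapped and only group B stood apart. SLC7A11, the cystine importer, had 25.4, 28.3 and 30.2 CPM in A, 62.3, 59.97 and 68.3 CPM in B, 22.7, 21.7 and 16.9 CPM in C and 16.4, 17.6 and 19.1 CPM in D, so that B was highest and both 3% O2 groups lay below every A library. Its interaction value was -1.39 ± 0.16 (log2 ± SE, edgeR adjusted p = 7.83e-04). SESN2, a leucine sensor that restrains mTORC1, had an interaction value of -1.46 ± 0.26 (log2 ± SE, edgeR adjusted p = 0.00839) and DDIT3 (CHOP) of -1.64 ± 0.084 (log2 ± SE, edgeR adjusted p = 3.74e-06). DDIT3 kept a called response at 3% O2 (D - C 0.85, edgeR adjusted p = 3.90e-05) beside 2.49 at 20% O2, and 39.6% of its exon length overlaps another gene. SLC6A9, a glycine transporter, had -2.04 ± 0.37 (log2 ± SE, edgeR adjusted p = 0.00925), while NUPR1, a stress-induced chromatin factor (-1.97), kept its call only without C1, C3 or D1.

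Of the 20 cytosolic aminoacyl-tRNA synthetases, which charge tRNAs with amino acids, 11 had a negative interaction value past the threshold and none a positive one (median -0.28), all 11 in the D - B class (1 higher and 13 lower at an unadjusted p under 0.05, 0 and 13 by DESeq2). At 20% O2, FDX2 loss raised 9 and lowered 2; at 3% O2 it raised none and lowered 4 (0 higher and 5 lower at an unadjusted p under 0.05, 0 and 5 by DESeq2). AARS1 had 264, 247 and 229 CPM at 20% O2 with Doxy and 449.8, 463 and 432 CPM without it, against 254, 247 and 269 CPM at 3% O2 with Doxy and 258, 247 and 237 CPM without it. The A, C and D libraries of AARS1 overlapped, and the interaction value was -0.92 ± 0.086 (log2 ± SE, edgeR adjusted p = 3.02e-04). WARS1 had -0.97 ± 0.071 (log2 ± SE, edgeR adjusted p = 6.68e-05). The remaining called members lay between -0.70 (CARS1) and -0.25 (IARS1). With 1 library left out, 6 members were called lower without B1 or D2, 7 without A3, B2, B3, C1 or D3, and 12 without C3, where 2 were called higher. The number called lower was 5 without A1 and A2 and 7 with no filter or with the replicate block over all 12 libraries, and with the GC trends removed 10 were called lower and 1 higher.

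The ATF4 transcript itself was not called for the interaction. ATF4 had 352, 315 and 320.3 CPM at 20% O2 with Doxy and 439, 455 and 419 CPM without it, against 276, 268 and 336 CPM at 3% O2 with Doxy and 460.3, 406 and 394 CPM without it. It rose with FDX2 loss at both oxygen levels (0.41 at 20% O2, edgeR adjusted p = 0.00491, and 0.52 at 3% O2, edgeR adjusted p = 0.00722), and its interaction value was 0.11 ± 0.13 (log2 ± SE, edgeR adjusted p = 0.651).

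Outside the lists, PAPPA2, IL11 and SAT1 were among the 8 genes with the most negative interaction values in D - B alone at a mean of at least 5 CPM. PAPPA2, a protease that cleaves IGF-binding proteins, lies at chr1:176463171-176845605 (GRCh38, plus strand) and had an interaction value of -2.04 ± 0.088 (log2 ± SE, edgeR adjusted p = 1.77e-06). PAPPA2 had 20.9, 20.7 and 17.99 CPM at 20% O2 with Doxy and 71.6, 72.6 and 73.7 CPM without it, against 23.9, 23.6 and 24.6 CPM at 3% O2 with Doxy and 20.6, 21.9 and 21.6 CPM without it. Group B stood apart from all other libraries, D overlapped A, and C lay slightly above both. IL11, a cytokine of the IL-6 family, had 21.4, 16.8 and 17.8 CPM in A, 81.7, 83.4 and 81.2 CPM in B, 18.1, 20.2 and 27.8 CPM in C and 20.6, 28.4 and 29.2 CPM in D, with overlap among A, C and D, and an interaction value of -1.89 ± 0.23 (log2 ± SE, edgeR adjusted p = 0.00126). SAT1, which acetylates polyamines, had an interaction value of -1.45 ± 0.14 (log2 ± SE, edgeR adjusted p = 2.96e-04) and kept a D - C of 0.85 (edgeR adjusted p = 7.69e-04).

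Of 34 tested genes of the senescence-associated secretory phenotype (SASP), the secreted factors of senescent cells, 13 had a negative and 1 a positive interaction value past the threshold (median -0.36). Without A1 and A2 the counts were 8 and 0. The positive call, that of IGFBP3, was kept only without C3 or D2 among the fits with 1 library left out. Without D1, 1 member was called higher, but it was not IGFBP3. FDX2 loss raised 22 and lowered 3 at 20% O2 (median 0.59), and raised 8 and lowered none at 3% O2 (median 0.19, 16 higher and 1 lower at an unadjusted p under 0.05, 9 and 0 by DESeq2). The called members fell in several classes, with 9 in D - B alone, 2 in C - A alone (VEGFA and SERPINE2) and 3 with both oxygen effects in the same direction. CXCL8, a neutrophil chemokine, had 114, 128 and 141 CPM in A, 291, 294 and 314 CPM in B, 101, 107 and 86.7 CPM in C and 100.3, 99.2 and 112 CPM in D. Group B was highest, C and D overlapped, and A lay just above them. The interaction value was -1.15 ± 0.13 (log2 ± SE, edgeR adjusted p = 9.27e-04). IL1B had 13.01, 14.8 and 14.1 CPM at 20% O2 with Doxy and 45.8, 47.6 and 44.1 CPM without it, against 14.1, 13.5 and 14.7 CPM at 3% O2 with Doxy and 21.5, 21.8 and 23.9 CPM without it. For this interleukin the D libraries lay above all A and C libraries and below all B libraries, and the interaction value was -1.05 ± 0.095 (log2 ± SE, edgeR adjusted p = 2.41e-04). IL1A was lower in level (at most 1.34 CPM outside group B) and had -2.30 ± 0.23 (log2 ± SE, edgeR adjusted p = 5.12e-04). GDF15, a stress cytokine, had a D - C of 1.81 beside a B - A of 3.46, and its interaction value of -1.64 ± 0.36 (log2 ± SE, edgeR adjusted p = 0.0202) was lost without B3.

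Of 24 tested NF-kB targets, 5 had a negative interaction value past the threshold and none a positive one (median -0.14, 1 higher and 7 lower at an unadjusted p under 0.05, 0 and 6 by DESeq2). They were IL1A, CXCL8 and IL1B, which are also in the SASP list, and the feedback regulators TNFAIP3 (-0.92) and BIRC3 (-0.87). All 5 belonged to D - B alone. With the GC trends removed 10 were called lower and 2 higher. Among 25 tested interferon-induced genes, 2 were called lower, IFIT3 (-0.67) being 1 of them, and 1 was called higher, IFITM2 (0.55). Over all tested genes these shares were 4.08% and 3.21%. The counts were 5 lower and 2 higher with the GC trends removed, and 0 lower and 1 higher without A1 and A2.

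Cell-cycle genes lay on the positive side, where for these genes a positive value means that the fall with FDX2 loss was smaller at 3% O2. Of 54 tested G2/M genes, which act in mitosis, 36 had a positive interaction value past the threshold and none a negative one (median 0.50, 47 higher and 0 lower at an unadjusted p under 0.05, 42 and 0 by DESeq2), all 36 in D - B alone. FDX2 loss lowered 52 at 20% O2 (median -0.73) and 25 at 3% O2 (median -0.25), and raised none at either (at 20% O2 0 higher and 53 lower at an unadjusted p under 0.05, 0 and 53 by DESeq2, and at 3% O2 1 higher and 41 lower at an unadjusted p under 0.05, 0 and 36 by DESeq2). The oxygen effect was called higher for 44 members without Doxy (median 0.48) and for none with Doxy (median -0.023, 5 higher and 0 lower at an unadjusted p under 0.05, 0 and 0 by DESeq2). The number called for the interaction was 25 without B3, 40 without C3, 49 with the GC trends removed, 24 with the replicate block over all 12 libraries, and 26 without A1 and A2. MKI67 had 585, 581 and 568 CPM at 20% O2 with Doxy and 224, 222 and 225 CPM without it, against 607, 616 and 742 CPM at 3% O2 with Doxy and 445, 434 and 428 CPM without it. MKI67 encodes the proliferation antigen Ki-67. Group B was lowest, and the D libraries, though above B, lay below every library with Doxy. Its interaction value was 0.78 ± 0.095 (log2 ± SE, edgeR adjusted p = 0.00112), with a D - C of -0.59 that was still called (edgeR adjusted p = 7.02e-04).

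KIF20A, a kinesin of cytokinesis, had 106, 108 and 102 CPM in A, 36.3, 37.3 and 33.3 CPM in B, 104, 110.2 and 121 CPM in C and 79.4, 80.95 and 78.4 CPM in D, where B was lowest, D came next, and A and C overlapped, and an interaction value of 1.07 ± 0.090 (log2 ± SE, edgeR adjusted p = 1.94e-04). PLK1, a mitotic kinase, had 1.08 ± 0.15 (log2 ± SE, edgeR adjusted p = 0.00243), and CCNF, cyclin F, had 1.10 ± 0.23 (log2 ± SE, edgeR adjusted p = 0.0182). Survivin (BIRC5, 0.80) and the spindle genes PSRC1 (0.83) and DLGAP5 (0.72) were called as well. Of 42 tested S-phase genes, which act in DNA replication, 11 had a positive interaction value past the threshold and none a negative one (median 0.20, 21 higher and 0 lower at an unadjusted p under 0.05, 14 and 0 by DESeq2), between 0.28 (SLBP) and 0.76 (UHRF1). FDX2 loss lowered 34 of them at 20% O2 (median -0.40) and 19 at 3% O2 (median -0.25). By DESeq2 it lowered 35 and 27, and at an unadjusted p under 0.05 35 and 30. With Doxy the oxygen effect was called for none (median -0.11). At an unadjusted p under 0.05, 0 were higher and 16 lower with Doxy, and by DESeq2 0 and 7. Without Doxy 11 were called higher and 3 lower (median 0.083). Of the 11 called for the interaction, 9 belonged to D - B alone and 2 had neither oxygen effect called. TYMS, thymidylate synthase, had 229.6, 227 and 222 CPM in B and 312, 297 and 291 CPM in D against 417, 406 and 409 CPM in A, and an interaction value of 0.53 ± 0.069 (log2 ± SE, edgeR adjusted p = 0.00165), although 46.6% of its exon length overlaps another gene. With 1 library left out, 5 S-phase genes were called without B3, 6 without B1, B2 or C2, 7 without A2 or C1 and 14 without C3, and 2 without A1 and A2. With the GC trends removed the number was 26 (median 0.30), with the replicate block over all 12 libraries 6, and with no filter 7. CDKN1A, the p21 inhibitor of cell-cycle kinases, was not called, with an interaction value of -0.42 ± 0.29 (log2 ± SE, edgeR adjusted p = 0.417) and 2.91 to 5.59 CPM over all libraries.

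Genes of cholesterol synthesis and uptake were another list with positive calls alone. Of 23 tested, 11 had a positive interaction value past the threshold and none a negative one (median 0.45, 17 higher and 0 lower at an unadjusted p under 0.05, 13 and 0 by DESeq2), 10 of them in D - B alone. FDX2 loss lowered 18 at 20% O2 (median -0.50) and none was called in either direction at 3% O2 (median -0.062, 0 higher and 5 lower at an unadjusted p under 0.05, 0 and 3 by DESeq2). EBP encodes a sterol isomerase. EBP had 37.2, 37.5 and 34.8 CPM at 20% O2 with Doxy and 22.2, 23.3 and 22.4 CPM without it, against 30.2, 35.2 and 36.4 CPM at 3% O2 with Doxy and 32.4, 34.9 and 34.7 CPM without it. All B libraries were lowest, and the other groups overlapped. Its interaction value was 0.69 ± 0.10 (log2 ± SE, edgeR adjusted p = 0.00295). The count of 11 was 6 without B3, 7 without C1 or C2, and 2 without A1 and A2, where the list median was 0.37. It was 17 with the GC trends removed and 7 with the replicate block over all 12 libraries.

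Other genes with large positive values had no list. CAVIN3, which coats caveolae, had 31.7, 25.6 and 23.4 CPM in A, 11.3, 10.8 and 9.98 CPM in B, 31.1, 32.9 and 37.7 CPM in C and 31.4, 30.2 and 30.9 CPM in D, and an interaction value of 1.19 ± 0.15 (log2 ± SE, edgeR adjusted p = 0.00162). Only group B stood apart. Of its exon length, 33.3% overlaps another gene. SHISA3, an inhibitor of WNT and FGF receptor maturation, had 1.07 ± 0.16 (log2 ± SE, edgeR adjusted p = 0.00353). The antisense transcripts GAS6-AS1 (1.35) and TMPO-AS1 (1.12) and the centrosomal gene LRRC45 (1.13) were also among the largest at a mean of at least 5 CPM. However, GAS6-AS1 lost its call without B1 or C2, TMPO-AS1 without B3, and LRRC45 kept it only without A3, C3 or D1.

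**Figure D3:**
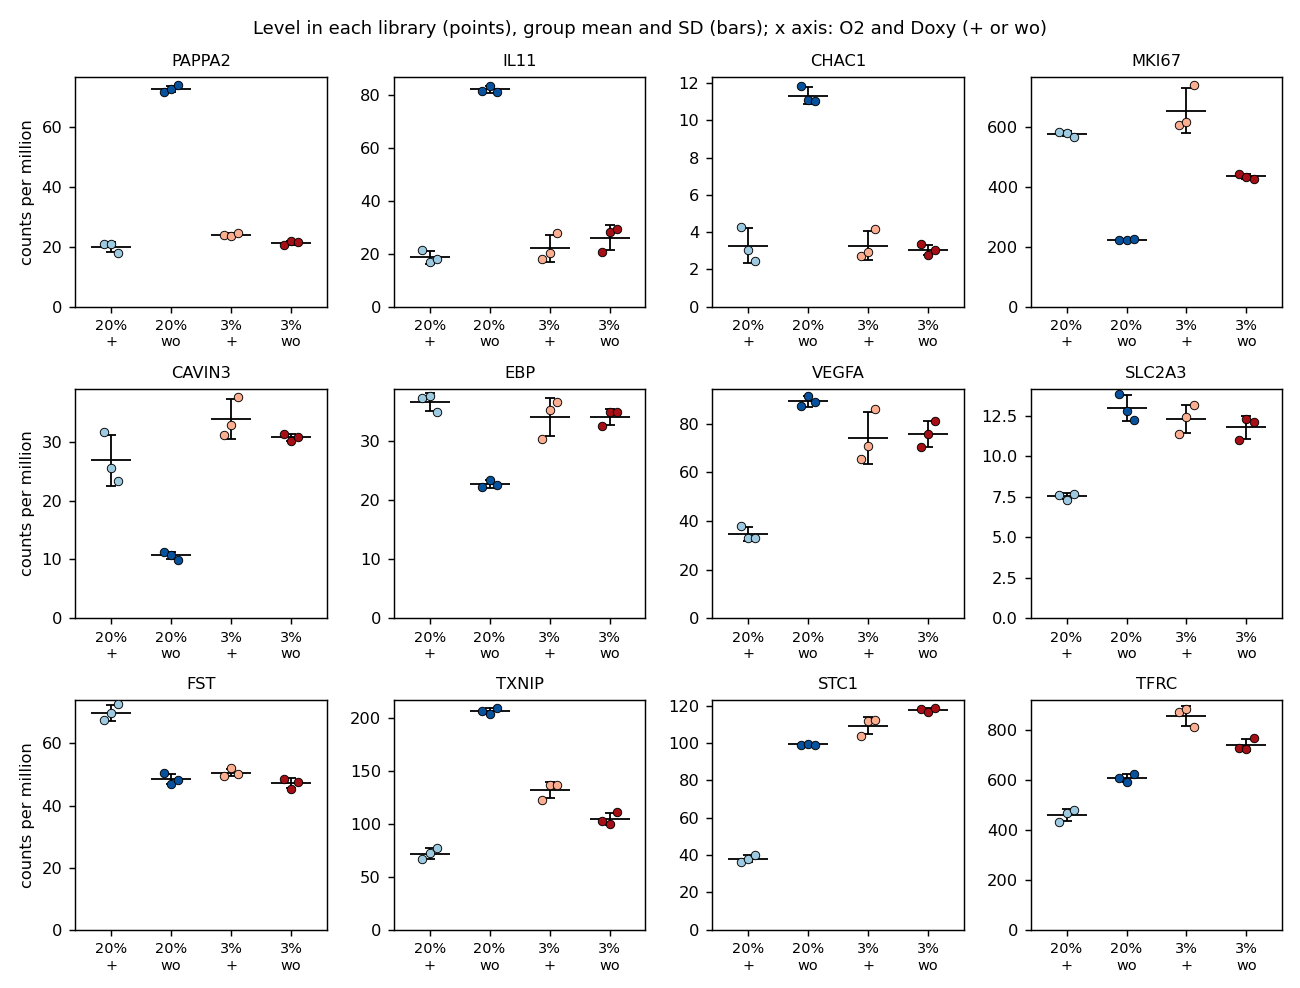
Level in CPM (y axes, from 0) of 12 genes in each of the 12 libraries; x axes give the oxygen level and Doxy (+ or wo), points are libraries, and bars are group means with the SD over 3 libraries. In the first 6 panels 20% O2 wo Doxy is the group apart, in VEGFA, SLC2A3 and FST it is 20% O2 + Doxy, and TXNIP, STC1 and TFRC differ between oxygen levels both with and without Doxy.

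The smaller class, in which the oxygen effect was called with Doxy alone, included angiogenic and glucose-uptake genes that had risen with FDX2 loss already at 20% O2. VEGFA, the main angiogenic growth factor, lies at chr6:43770184-43786487 (GRCh38, plus strand). VEGFA had 38.1, 32.8 and 32.9 CPM at 20% O2 with Doxy and 87.2, 91.4 and 88.9 CPM without it, against 65.6, 70.6 and 85.99 CPM at 3% O2 with Doxy and 70.2, 75.8 and 81.2 CPM without it. All A libraries were lowest, all B libraries highest, and C and D overlapped. C - A was 1.10 (edgeR adjusted p = 1.21e-04), D - B was -0.24 (edgeR adjusted p = 0.102), and the interaction value was -1.33 ± 0.14 (log2 ± SE, edgeR adjusted p = 5.41e-04). In the fit to the 6 libraries without Doxy with the replicate number as a block, D - B of VEGFA was -0.27 and passed the threshold (edgeR adjusted p = 0.0199), which would place it among the genes with opposite oxygen effects. SLC2A3, the glucose transporter GLUT3, had 7.61, 7.32 and 7.70 CPM in A, 13.9, 12.8 and 12.3 CPM in B, 11.4, 12.4 and 13.2 CPM in C and 10.99, 12.3 and 12.1 CPM in D, with B, C and D overlapping and an interaction value of -0.85 ± 0.11 (log2 ± SE, edgeR adjusted p = 0.00190).

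ADGRG1, an adhesion G protein-coupled receptor, had -1.32 ± 0.24 (log2 ± SE, edgeR adjusted p = 0.00832) and STC2, a stanniocalcin hormone, -0.71 ± 0.10 (log2 ± SE, edgeR adjusted p = 0.00257). Positive members of this class were fewer and smaller. FST, which binds and blocks activin, had 67.5, 69.7 and 72.6 CPM in A, 50.4, 47.04 and 48.1 CPM in B, 49.7, 51.99 and 50.2 CPM in C and 48.5, 45.4 and 47.6 CPM in D, so that group A alone was higher, and an interaction value of 0.42 ± 0.072 (log2 ± SE, edgeR adjusted p = 0.00612). HK2-DT, a transcript divergent from hexokinase 2, had 0.66 ± 0.13 (log2 ± SE, edgeR adjusted p = 0.0115). SCART1 (0.77) lost its call without B1, C1, C2 or D2, the zinc finger gene ZNF367 (0.42) kept it only without A1, A3, C3, D1 or D2, and TADA1, a subunit of the SAGA complex (0.48), only without A1 or C3.

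Most targets of HIF-1 were higher at 3% O2 both with and without Doxy. Of 53 tested, 35 were called higher with Doxy (median C - A 0.68) and 41 higher and 5 lower without Doxy (median D - B 0.70). The interaction was called lower for 13 and higher for 3 (median -0.070), and among these 16 were 4 of the C - A class, 8 with both oxygen effects in the same direction, 1 with opposite directions and 3 of the D - B class. With 1 library left out 9 to 14 were called lower and 1 to 7 higher, with 1 higher without B1 or B2 and 7 without C3. The counts were 7 lower and 1 higher without A1 and A2, 16 and 7 with the GC trends removed, and 16 and 5 by DESeq2. CA9, a carbonic anhydrase that marks hypoxic cells, had 2 to 9 counts per library at 20% O2 and 40.4 to 87.3 CPM at 3% O2, where groups C and D overlapped. With 1 library left out, its interaction value lay between -1.74 and -1.18 and was called in 0 of 12 fits. The few counts at 20% O2 make this value uncertain, and 38.5% of the exon length of CA9 overlaps another gene. BNIP3 had 109, 105 and 109.9 CPM at 20% O2 with Doxy and 89.3, 91.3 and 91.3 CPM without it, against 313, 356 and 362 CPM at 3% O2 with Doxy and 209.6, 226 and 245 CPM without it. The oxygen effect on BNIP3, a mitophagy receptor, was called in both backgrounds (C - A 1.67, D - B 1.32), and its interaction value of -0.34 ± 0.096 (log2 ± SE, edgeR adjusted p = 0.0564) missed the threshold, which it passed by DESeq2, with DESeq2's size factors, with a stricter filter, with the GC trends removed and without C1 or D3. LDHA, lactate dehydrogenase, had -0.070 ± 0.095 (log2 ± SE, edgeR adjusted p = 0.693), which turned to 0.023 with the GC trends removed. None of the 17 glycolytic enzymes was called for the interaction by edgeR (3 higher and 0 lower at an unadjusted p under 0.05, 2 and 0 by DESeq2), although C - A was called higher for 9 and D - B for 14. The number called higher for the interaction was 4 without C3, 1 without A3 and 2 with the GC trends removed.

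The promoters of DDIT4 and MXI1 are shown because these members had large differences and hold ACGTG or GCGTG, the core to which HIF dimers are known to bind, within 250 bases before the start. On either strand this core occurred in 39 of 43 tested members with a RefSeq promoter (90.7%), in 12 of 12 called ones, and in 47.4% of all promoters, so that a match is common. The stretches are from RefSeq GRCh38.p14, 5′ to 3′ on the plus strand, at chr10:72273841-72273905 and chr10:110210088-110210152, with matched letters in capitals. In MXI1 the match CACGT reads ACGTG on the opposite strand.
DDIT4: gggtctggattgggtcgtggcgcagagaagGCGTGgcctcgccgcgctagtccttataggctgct
MXI1: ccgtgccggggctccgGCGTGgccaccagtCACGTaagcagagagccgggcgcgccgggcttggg

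Genes with both oxygen effects in opposite directions rose with low oxygen when FDX2 was present and fell when it was withdrawn, or the reverse. TXNIP, which binds thioredoxin and limits glucose uptake, lies at chr1:145992435-145996600 (GRCh38, minus strand). TXNIP had 66.3, 72.4 and 76.7 CPM at 20% O2 with Doxy and 206, 203 and 209 CPM without it, against 123, 136 and 136 CPM at 3% O2 with Doxy and 102, 99.4 and 111 CPM without it. No 2 groups overlapped, and the order from low to high was A, D, C, B. C - A was 0.87 and D - B -0.98, and the interaction value was -1.86 ± 0.095 (log2 ± SE, edgeR adjusted p = 3.74e-06). FDX2 loss raised TXNIP at 20% O2 (1.52, edgeR adjusted p = 1.39e-07) and lowered it at 3% O2 (-0.34, edgeR adjusted p = 0.0127). ARRDC4, its arrestin-domain relative, had C - A of 0.58, D - B of -0.80 and -1.38 ± 0.15 (log2 ± SE, edgeR adjusted p = 6.97e-04). Of 7 tested genes of the TXNIP and arrestin-domain list, 3 were called lower for the interaction and none higher (median -0.42, 1 higher and 4 lower at an unadjusted p under 0.05, 0 and 3 by DESeq2). A positive call appeared without C3 and with the GC trends removed.

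SULT1C2, a sulfotransferase, had 3.20, 2.65 and 2.79 CPM in A, 18.6, 21.3 and 21.5 CPM in B, 6.25, 5.73 and 5.85 CPM in C and 12.2, 11.5 and 11.5 CPM in D, with no overlap between groups. Its response to FDX2 loss was called at both oxygen levels (2.83 and 0.98), and the interaction value was -1.84 ± 0.13 (log2 ± SE, edgeR adjusted p = 3.95e-05). GPNMB, a lysosomal glycoprotein, went the same way with -1.27 ± 0.11 (log2 ± SE, edgeR adjusted p = 2.20e-04), as did DUSP10, a MAP kinase phosphatase, with -1.23 ± 0.11 (log2 ± SE, edgeR adjusted p = 2.20e-04), and ACSL5, which activates fatty acids, with -1.18 ± 0.14 (log2 ± SE, edgeR adjusted p = 0.00101). Of 33 tested lysosomal genes, 9 were called lower for the interaction and none higher (median -0.096, 1 higher and 12 lower at an unadjusted p under 0.05, 1 and 11 by DESeq2), between -1.27 (GPNMB) and -0.36 (CTSK). The number called lower was 3 without A1 and A2, and 1 gene was called higher without A1, without C3 and with the GC trends removed. FDX2 loss raised 15 of the 33 and lowered 2 at 20% O2 (median 0.16), and raised 6 and lowered 1 at 3% O2 (median 0.20). At an unadjusted p under 0.05, 17 were higher and 2 lower at 20% O2, and 14 higher and 1 lower at 3% O2. The medians were thus not smaller at 3% O2. CTSS, cathepsin S, had -1.27 ± 0.17 (log2 ± SE, edgeR adjusted p = 0.00219), and TPP1, a lysosomal peptidase, -0.67 ± 0.079 (log2 ± SE, edgeR adjusted p = 0.00105).

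Clustered histone genes rose with FDX2 loss at both oxygen levels, in 12 of 13 tested at 20% O2 (median 1.70) and in 10 of 13 at 3% O2 (median 1.01), and the interaction was called lower for 5 and higher for 1 (median -0.74). The number called lower was 3 without B1, B2, B3 or D2, without A1 and A2, with the replicate block over all 12 libraries and with no filter. H2BC15 had 1.79, 1.81 and 1.56 CPM at 20% O2 with Doxy and 10.6, 10.7 and 11.2 CPM without it, against 2.91, 3.25 and 3.27 CPM at 3% O2 with Doxy and 9.10, 8.77 and 8.73 CPM without it. No 2 groups of H2BC15 overlapped. Its oxygen effect was called with Doxy (0.87) and, in the opposite direction, without Doxy (-0.29), and the interaction value was -1.16 ± 0.12 (log2 ± SE, edgeR adjusted p = 5.98e-04). H2BC5, whose oxygen effect was called with Doxy alone (0.81), had -0.92 ± 0.17 (log2 ± SE, edgeR adjusted p = 0.0108). These genes are near-identical copies whose reads can be split or lost in counting, most of their transcripts lack a poly(A) tail, and their levels here are therefore uncertain. Among the fits with 1 library left out H4C8 was called only without A2, C1, C3, D1 or D3, H2BC21 only without A1, A3, C2, C3, D1 or D3, and H1-2 only without C3.

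Genes with both oxygen effects in the same direction differed in how far they moved. STC1 encodes a secreted stanniocalcin. STC1 had 36.2, 38.01 and 39.9 CPM at 20% O2 with Doxy and 99.04, 99.5 and 99.1 CPM without it, against 104, 112 and 112 CPM at 3% O2 with Doxy and 118, 117 and 119 CPM without it. No 2 groups overlapped, group A stood far below, and B lay just under C and D. C - A was 1.52 against a D - B of 0.25, with an interaction value of -1.28 ± 0.071 (log2 ± SE, edgeR adjusted p = 7.08e-06). DDIT4, an mTORC1 inhibitor induced by both ATF4 and HIF-1, had 5.21, 5.0 and 4.17 CPM in A, 19.7, 19.98 and 18.4 CPM in B, 25.5, 34.8 and 33.9 CPM in C and 33.5, 36.4 and 43.6 CPM in D. Groups C and D overlapped, and the interaction value was -1.74 ± 0.19 (log2 ± SE, edgeR adjusted p = 7.00e-04), with 41.2% of its exon length shared with another gene. SPX, a neuropeptide hormone, fell with low oxygen in both backgrounds (C - A -0.68, D - B -2.12) and had -1.44 ± 0.16 (log2 ± SE, edgeR adjusted p = 7.06e-04).

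TFRC, the transferrin receptor that imports iron, was higher at 3% O2 in both backgrounds. TFRC had 432, 468 and 478 CPM at 20% O2 with Doxy and 606, 589.8 and 623 CPM without it, against 872, 883 and 809 CPM at 3% O2 with Doxy and 727, 722 and 764 CPM without it. No 2 groups overlapped, and the order was A, B, D, C. FDX2 loss raised TFRC at 20% O2 (0.40) and lowered it at 3% O2 (-0.21, edgeR adjusted p = 0.0332), with an interaction value of -0.61 ± 0.074 (log2 ± SE, edgeR adjusted p = 0.00112). VLDLR, a lipoprotein receptor, had the same signs (0.53 and -0.47) and -0.998 ± 0.10 (log2 ± SE, edgeR adjusted p = 4.49e-04). Of 16 tested iron uptake and storage genes, TFRC and the ferritin light chain FTL (-0.63) were called lower for the interaction, and FTL kept its call only without A1, C1, C2 or C3. In this list 4 were called lower without A1, 4 with the GC trends removed and 5 by DESeq2, and 1 was called higher in both of the latter. Positive values in this class were found for SERPINA1, a protease inhibitor (0.52), ODAD2, a ciliary dynein-docking gene (0.48), XDH, xanthine dehydrogenase (0.54), and IGFBP3, which binds IGF (0.65). Of these 4, ODAD2 was called in each fit with 1 library left out, SERPINA1 lost its call without B1, B3 or C2, XDH kept it only without A1, A3, B1, C3, D1 or D3, and IGFBP3 only without C3 or D2.

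Both responses to FDX2 loss were called in opposite directions for 10 genes. TXNIP, ARRDC4, TFRC, VLDLR, ALDH1L2, PSAT1, ABCA1, a cholesterol exporter (-1.01), and ZNF28 (-0.62) rose at 20% O2 and fell at 3% O2. MST1 (1.45) and the unnamed gene ENSG00000279207 (0.63) fell at 20% O2 and rose at 3% O2. PSAT1, ABCA1, ZNF28, MST1 and ENSG00000279207 were picked out after their values were seen.

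Transcripts of Fe-S proteins and of nuclear OXPHOS subunits were called at shares near that of all genes in either direction (7.29%). All of their calls were in the higher direction, however, for which the share over all genes was 3.21%, against 4.08% lower. Of 43 tested Fe-S protein genes, 3 were called higher for the interaction (XDH, the glycosylase NTHL1 at 0.82 and UQCRFS1, the Rieske subunit of complex III, at 0.33) and none lower (median 0.14, 13 higher and 2 lower at an unadjusted p under 0.05, 7 and 1 by DESeq2). The number called higher was 13 with the GC trends removed, 8 without C3 (with 1 lower), 1 without A2, B3, C1 or C2, and 0 without A1 and A2. Among 26 Fe-S assembly genes, only GLRX5, a glutaredoxin that passes on Fe-S clusters, was called, with 0.52 ± 0.096 (log2 ± SE, edgeR adjusted p = 0.00878), and none was called lower (4 higher and 3 lower at an unadjusted p under 0.05, 2 and 0 by DESeq2). With the GC trends removed 5 of the 26 were called higher, without C3 2, without D1 2 with 1 lower, and without A1 and A2 none. GLRX5 had 57.4, 55.2 and 56.9 CPM at 20% O2 with Doxy and 38.3, 39.99 and 37.5 CPM without it, against 56.1, 57.5 and 53.8 CPM at 3% O2 with Doxy and 61.03, 52.7 and 50.9 CPM without it. Group B was lowest and the other groups overlapped. Of 43 nuclear OXPHOS subunits, 4 were called higher (median 0.057), between 0.21 (ATP5F1B) and 0.39 (SDHA), and none lower (8 higher and 2 lower at an unadjusted p under 0.05, 5 and 1 by DESeq2). None was called higher without A2, B1, B3, C1 or C2, without A1 and A2, with the replicate block over all 12 libraries or with no filter. With 1 library left out, UQCRFS1 lost its call without A2, B1, B3, C1, C2 or D3, SDHA kept it only without A3, C3 or D3, ATP5F1A only without A1 or C3, and ATP5F1B only without A3 or C3. D - B of ATP5F1A and ATP5F1B did not pass the threshold with the replicate number as a block (edgeR adjusted p = 0.106 and 0.0605). None of the 13 mitochondrially encoded genes was called by edgeR (median -0.021, 1 higher and 1 lower at an unadjusted p under 0.05, 1 and 1 by DESeq2), although 1 was called higher without C1 or C3, and 1 lower without A3 and 2 without D1, and 1 in each direction with the GC trends removed. Of 15 mitochondrial chaperones and proteases HSPD1, the Hsp60 chaperonin (0.35), was called higher, and of 35 cytosolic ribosomal proteins RPS9 (0.33) was called higher and RPL4 (-0.24) lower. HSPD1 lost its call without A2, B1, B2, B3 or C2, RPS9 kept it only without A2, B2 or C3, and RPL4 only without A1, A3, C1 or C3.

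**Figure D4:**
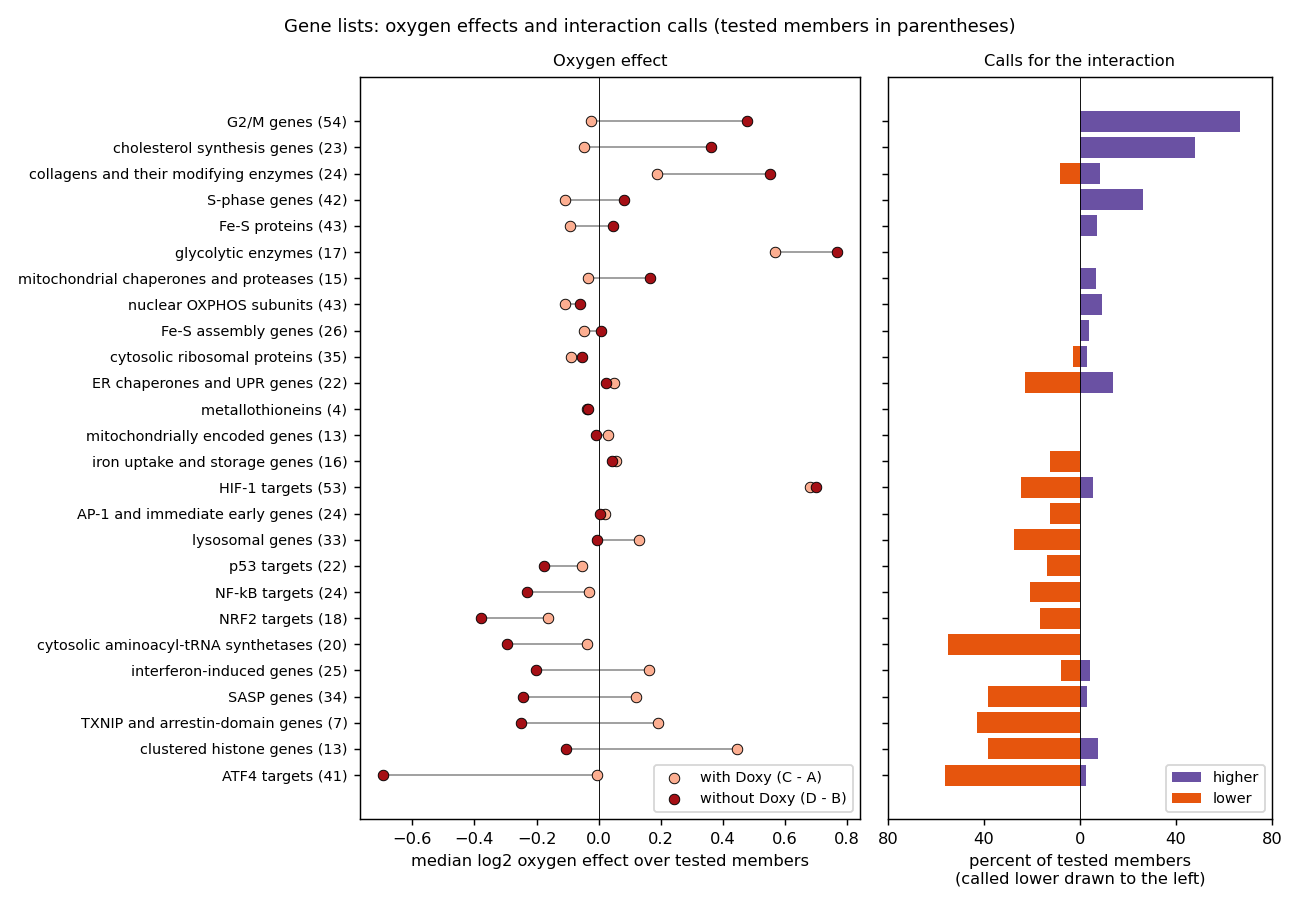
Left, median log2 oxygen effect over the tested members of each of 26 gene lists, with Doxy (light points) and without Doxy (dark points); right, percent of tested members called for the interaction, higher to the right and lower to the left, with numbers of tested members in parentheses. ATF4 targets and G2/M genes show medians near 0 with Doxy and of -0.69 and 0.48 without Doxy, whereas HIF-1 targets show 0.68 and 0.70.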

How the data were processed

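Poly(A) RNA of the 12 libraries was read on a DNBSEQ-T7 instrument. The authors used STAR for alignment to GRCh38 and featureCounts for counting, per the labels and the methods, and the deposited values are raw read counts per gene and library. Their versions, annotation release, strand setting and treatment of multi-mapped reads are not given in the sources used here, and no normalized values were used. All 58735 identifiers matched GENCODE 29, of which 58207 have a current symbol, and exon overlap and transcript GC content were computed from it. Among genes named without such a value beside them, other genes overlap 22.8% of the exon length of IFITM2, 21.2% of TMPO-AS1, 18.2% of GLRX5, 17.7% of NQO1, 16.5% of NTHL1, 14.4% of TPP1, 12.5% of PLK1, 11.8% of CCNF and 10.6% of WARS1, whose counts are uncertain to that extent.

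Counts were filtered with filterByExpr (minimum count 10, minimum total 15) and scaled by TMM. A quasi-likelihood model with 4 group means was fitted to all 12 libraries in edgeR 4.0.16 (limma 3.58.1, R 4.3.3), with 8 residual degrees of freedom and a common biological coefficient of variation of 16.3%, and p-values were adjusted by Benjamini-Hochberg over 16891 genes. DESeq2 1.42.0 was an alternative. SE is the size of the log2 value over the root of the F statistic. Replicates of a group differed by more than sampling noise (median chi-square per degree of freedom 1.30 to 3.90). The design text calls them biological replicates, and p-values measure the spread between these libraries. The steps were tested on simulated counts.

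Genes were named from each class if they had a symbol, an adjusted p under 0.05 and a mean of at least 5 CPM: the 8 largest in each direction for D - B alone, 5 for C - A alone, 6 for both opposite and 4 for both the same. Also named, with no minimum level, were up to 6 called members of each list and a few genes for their role or, like the ends of list ranges, after their values were seen. The members and lists were chosen with earlier results of these data known, and lists come from general knowledge with no set test. Alternatives were other scaling, filters and thresholds, DESeq2, a replicate block, libraries left out and removal of each library's GC trend. Between B and D, same-numbered libraries deviated together (r = 0.245 to 0.359, others -0.428 to 0.0732), which held for no other pair of groups, so a block was also fitted to these 6 libraries for D - B alone. Promoter windows are from RefSeq GRCh38.p14. Results for some genes are not reported here.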

Additional observations from a re-analysis of the deposited data

Results flagged for a closer look

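The number of genes whose response to FDX2 loss differed between oxygen levels by a test of the difference itself was 1231. Both responses were called in opposite directions for 10 genes, of which 5 were named for their class or list and not after their values were seen. Their interaction values were -1.54 for ALDH1L2, -0.998 for VLDLR, -1.86 for TXNIP, -1.38 for ARRDC4 and -0.61 for TFRC. The interaction of each of these 5 was called in all 12 fits with 1 library left out, and their values without A1 and A2 kept the sign. These fits are given for the interaction and not for the response at 3% O2. That response was near the threshold for ALDH1L2 (edgeR adjusted p = 0.0426) and TFRC (edgeR adjusted p = 0.0332). Single outlying libraries were not looked for, since no group has over 3 libraries.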

How the results depend on the processing

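The interaction was called for 672 genes with no filter, 1932 by DESeq2, 615 with the replicate block over all 12 libraries, 2817 with GC correction, 303 without A1 and A2, 186 at 2-fold or more, 382 at an adjusted p under 0.01 and 520 to 2191 with 1 library left out. Under the same order of settings, FDX2 loss at 3% O2 gave 678, 1925, 676 and 2545 genes, then 118 at 2-fold, 404 at 0.01 and 581 to 1645 with 1 library left out. FDX2 loss at 20% O2 gave 3114 genes without A1 and A2, 910 at 2-fold, 3645 at 0.01 and 4423 to 6707 with 1 library left out. The oxygen effect with Doxy gave 620 by DESeq2, 218 with the block, 955 with GC correction, 97 without A1 and A2, 92 at 2-fold, 181 at 0.01 and 190 to 388 with 1 library left out. The oxygen effect without Doxy gave 451 at 2-fold, 1975 at 0.01, 2321 to 5225 with 1 library left out, and 4866 with the replicate block over the 6 libraries without Doxy, whose numbers pair, or 4058 with GC correction as well, against 4360. The block ended the D - B call of ATP5F1A and ATP5F1B, gave one to VEGFA, FTL and PLOD2, and changed that call in no other named gene. The share of interaction genes with D - B alone was 54.3% at 2-fold and 85.0% to 88.4% with 1 library left out, and that with C - A alone was 6.28% with GC correction, 1.98% without A1 and A2, 9.14% at 2-fold, 6.09% sorted by size and 2.05% to 5.96% with 1 library left out. In the class shares at 2-fold, an oxygen effect counted as called only if it also reached 2-fold. The positive share was 22.04% at 2-fold and 35.8% to 57.1% with 1 library left out. The interaction value of LDHA reversed to 0.023 with GC correction, where it was not called. The causes were not tested. Leaving out libraries also lowers the residual degrees of freedom.

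Of the 119 named genes with a call, 85 kept it in all 12 fits with 1 library left out. The GC trends, the lost FASTQ files of A1 and A2, and 3 libraries a group limit the counts of calls. Depth limits genes with few reads, such as FDX2 with 2 to 13 counts. SDF2L1, H1-2, P4HA1, RPS9 and RPL4 lost their calls with GC correction. Oxygen and days in culture, and Doxy and FDX2, cannot be told apart in this design.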

Other observations

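Genes of the endoplasmic reticulum (ER), where secreted proteins fold, were called in both directions. Of 22 tested ER chaperones and unfolded protein response genes, 5 were called lower for the interaction and 3 higher (list median 0.0057). Among all tested genes the shares were 4.08% and 3.21%. The number called higher was 1 without B1, B2, B3, C1, C2, D2 or D3, 2 without A2 or D1 and 0 without A1 and A2, where 3 were called lower. ERN1, the IRE1 stress sensor, had an interaction value of -0.91, its target XBP1 -0.83 and HERPUD1, an ER degradation factor, -0.62. SDF2L1, an ER chaperone cofactor, had 0.98, a call that was lost with the GC trends removed. FDX2 loss raised 5 and lowered 11 of the 22 at 20% O2 (median -0.18), and raised 0 and lowered 2 at 3% O2 (median -0.14). At an unadjusted p under 0.05, 5 were higher and 13 lower at 20% O2, and 1 higher and 14 lower at 3% O2. By DESeq2 the counts were 5 and 13 at 20% O2, and 0 and 12 at 3% O2. The fall was thus of similar size at both oxygen levels in this list.

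COL1A2, a chain of type I collagen, had the largest interaction value among 24 tested collagens and their modifying enzymes. It had 0.543, 0.290 and 0.411 CPM in A, 0.128, 0.190 and 0.130 CPM in B, 0.389, 0.306 and 0.356 CPM in C and 0.523, 0.754 and 0.717 CPM in D, and an interaction value of 2.37 ± 0.44 (log2 ± SE, edgeR adjusted p = 0.0101). Group B was lowest, A overlapped C and D, C and D did not overlap, and all levels were under 1 CPM. In this list 2 genes were called lower and 2 higher, against 3 and 4 with the GC trends removed and 0 and 0 without A1 and A2. Over all tested genes, 4.08% were called lower and 3.21% higher, which also stands beside the lists that follow. These shares belong to the main edgeR fit. With the GC trends removed 1016 of all genes were called lower and 1801 higher. Of 18 tested NRF2 targets, which act against oxidants, 3 were called lower and none higher (0 higher and 8 lower at an unadjusted p under 0.05, 0 and 6 by DESeq2), namely SLC7A11, FTL and NQO1 (-0.54), a quinone reductase. The number was 5 without A1 and 6 with the GC trends removed. Of 22 tested p53 targets, 3 were called lower and none higher (1 higher and 5 lower at an unadjusted p under 0.05, 0 and 3 by DESeq2), namely GDF15, GADD45A (-1.08), a DNA damage gene, and TP53INP1 (-1.22), an autophagy regulator. With the GC trends removed 6 were called lower and 1 higher. Of 24 immediate early genes, ATF3, FOSB (-0.70), an AP-1 subunit, and DUSP1 (-0.69), a MAP kinase phosphatase, were called lower and none higher (5 higher and 3 lower at an unadjusted p under 0.05, 4 and 3 by DESeq2). Calls in the higher direction numbered 3 without C3, 2 without D1, 1 without A3 and 4 with the GC trends removed. None of the 4 tested genes of a list of metallothioneins, which bind zinc, and the zinc exporter SLC30A1 was called by edgeR (0 higher and 1 lower at an unadjusted p under 0.05, 0 and 0 by DESeq2).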
